A study of Arabidopsis thaliana with 45 samples.

Results

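Genes of seed oil mobilisation in Arabidopsis thaliana, 4 in number, are described here across every RNA and H3K27me3 group of a study of the TOR kinase and the Polycomb protein FIE. They are SDP1 (AT5G04040), ICL (AT3G21720), MLS (AT5G03860) and PCK1 (AT4G37870), taken by their locus identifiers as 4 of the 29586 genes with a count in any RNA library and 4 of the 27444 nuclear protein-coding genes compared with peaks. A germinating seedling lives on stored oil until its leaves feed it. The lipase SDP1 starts the breakdown of that oil, beta-oxidation in the peroxisome turns the fatty acids into acetyl-CoA, and isocitrate lyase (ICL) and malate synthase (MLS), the enzymes that define the glyoxylate cycle, turn acetyl-CoA into 4-carbon acids. Phosphoenolpyruvate carboxykinase (PCK1) then commits this carbon to sugar, and ICL and MLS are known to be silenced once the seedling is established. Polycomb repressive complex 2, of which FIE is a subunit, places the histone mark H3K27me3 on silenced genes, while TOR is a kinase that ties growth to nutrients and energy.

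The study holds 12 RNA libraries (4 groups), 27 H3K27me3 libraries (9 groups) and 6 H3K9me2 libraries (2 groups), with 3 libraries in each group. The first experiment used shoots (aerial parts) at 2 weeks on solid medium. Its 4 genotypes were Col-0 wild type (Ctrl), amiR-fie-es (which makes an artificial microRNA that targets FIE once oestradiol is given), GFP-FIE/fie (fie plants rescued by wild-type FIE fused to GFP) and SSTS/AAAA/fie (fie plants carrying GFP-FIE with altered phosphorylation sites). The second experiment used 7-day-old seedlings in liquid medium, Col-0 against tor-es, in which oestradiol induces loss of TOR. The third used 7-day-old Col-0 seedlings that received the solvent DMSO or 10 µM of the TOR kinase inhibitors AZD8055 or Torin2 on day 4, for 3 days. The growth media held 0.5% sucrose, each ChIP used 1 g of pooled seedlings, and no RNA of tor-es was analysed here. Oestradiol (10 mM as labelled) is given for amiR-fie-es from the start and for tor-es from day 3, and for no other genotype, so inducer and silencing cannot be told apart. Nothing in the labels says that the libraries came from separate plantings, so every p-value measures the spread between these libraries, which may be technical.

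RNA totals ran from 28866845 to 34543091 counts per library, and the depth of the ChIP libraries is unknown. FIE transcript stood at 15.7 to 18.6 CPM (counts scaled to library size) in Ctrl, 8.79 to 9.10 in amiR-fie-es, 23.8 to 27.6 in GFP-FIE and 11.4 to 12.2 in SSTS/AAAA. SSTS/AAAA replicate 1 stood apart, with a chi-square per degree of freedom of 3.29 to 3.43 against its 2 fellows, where the other pairs of replicates gave 1.46 to 1.87. Leaf markers summed to 38800 to 55200 CPM in the 4 groups. Of the 4 root markers PYK10 stood at 241 to 262 CPM, and the root hair genes RHD6, COBL9 and EXPA7 at 0.323 CPM or less in every library. H3K27me3 peaks covered 6.05 to 6.68 Mb in Ctrl, 0.859 to 0.911 Mb in amiR-fie-es, 5.28 to 5.67 Mb in GFP-FIE and 2.41 to 2.45 Mb in SSTS/AAAA. They covered 4.28 to 4.51 Mb in Col-0 seedlings, 2.83 to 3.19 Mb in tor-es, 7.88 to 8.22 Mb under DMSO, 6.64 to 7.09 Mb under AZD8055 and 6.25 to 6.78 Mb under Torin2.

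ICL was the member under H3K27me3 in every group except tor-es, where no peak was called on it. A gene counted as marked in a library when that library's called peaks covered at least 200 bp of its body. ICL was marked in 24 libraries, and MLS, its partner in the glyoxylate cycle, in 2. PCK1 was covered over more than 63% of its length in all 9 libraries of the inhibitor experiment and carried a peak in 2 of the other 18. SDP1 was marked in all 3 AZD8055 libraries and in 1 DMSO library. No H3K9me2 peak touched any of the 4 genes in Col-0 or tor-es.

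**Figure D1:**
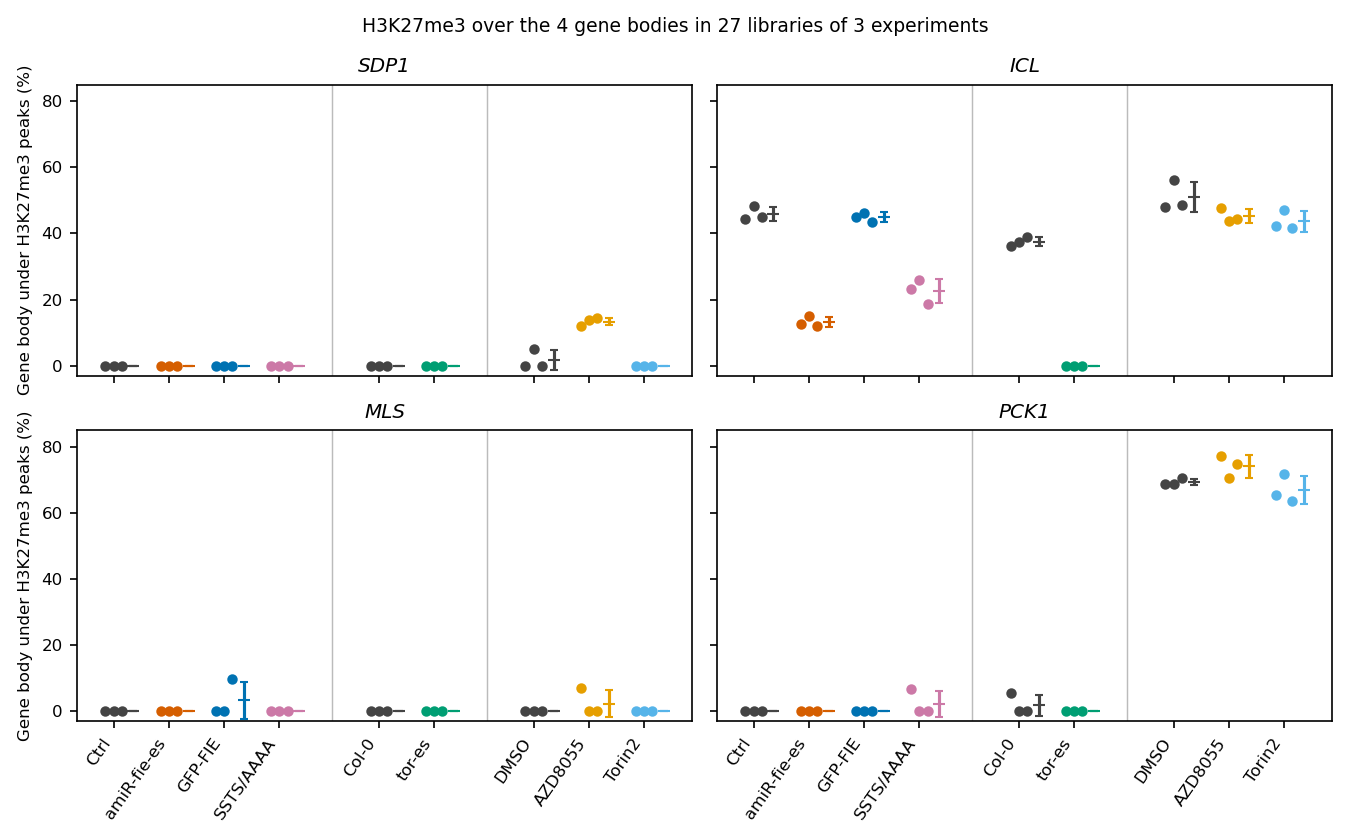
Share of each gene body (%) under called H3K27me3 peaks, one point per library in 9 groups, with the mean and SD beside the points; grey lines separate the 3 experiments. ICL falls from 36.3% to 38.9% in Col-0 to 0 in tor-es, and PCK1 lies between 63.5% and 77.1% in the inhibitor experiment.

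ICL, isocitrate lyase, lost all its peaks in the TOR-silenced seedlings. Peaks covered 1294, 1329 and 1389 bp of its 3567 bp body in the 3 Col-0 libraries, 37.5% ± 1.31 of the gene (SD, n = 3), and 0 bp in each of the 3 tor-es libraries. The groups did not overlap, and the exact two-sided permutation test gave p = 0.1, the smallest value that 3 libraries against 3 allow. All 3 tor-es libraries lay below all 3 Col-0 libraries at 26.8% of the 5853 genes with a peak in any of the 6. Of the 4003 genes marked in all 3 Col-0 libraries, 6.97% were marked in none of the tor-es libraries, so this count of 1 lost gene among the members comes from a class that makes up a small part of marked genes. The peak caller reports only what passes its threshold, so 0 bp means that no peak was called, not that the mark was absent.

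Loss in tor-es was most frequent among genes with little peak coverage in Col-0, where ICL had wide coverage made of peaks of low fold enrichment. Its mean coverage in Col-0 lay at the 89th percentile of the 4003 genes, above the upper quartile of 1050 bp. With the genes ranked by coverage and divided into 4 classes of equal size, 20.3% of the lowest class lost their peaks, 5.0% of the second, 2.3% of the third and 0.3% of the highest, which holds ICL, or 3 of 1000 genes. The other two were AT2G28590 and CYP714A1. By the strength of its strongest peak the gene stood less far out, at the 60.8th percentile (mean −log10 q of 9.58 against a median of 8.19), in the third class. By that ranking 20.0%, 5.49%, 2.1% and 0.3% of the classes were lost, from weakest to strongest. Both divisions were chosen after the values were seen, and the members with earlier results of these data known, so the place of ICL in them is a description. The coverage was made of 3 separate narrow peaks, each with a fold enrichment between 2.49 and 3.32, as the authors' caller gave it, at percentiles of 5.6 to 31.2 among the peaks of its own library. What part peak strength plays in the missing calls in tor-es was not tested.

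The 3 peaks recurred at the same places in all experiments. On chromosome 3 of the TAIR10 build they spanned at most 7653206 to 7653873, 7654067 to 7654738 and 7655241 to 7655892. All 3 places were called in every library of Ctrl, GFP-FIE, Col-0, DMSO, AZD8055 and Torin2. The middle place was called in 24 libraries, the place with the highest coordinate in 21 and the one with the lowest in 18. The FIE lines differed in which places they kept: amiR-fie-es kept the middle one in 3 of 3 libraries and neither of the others, and SSTS/AAAA kept the middle and the highest-coordinate one in 3 of 3. The neighbouring gene AT3G21710, which starts or ends 2592 bp from ICL, was marked in 1 Col-0 library and in 3 tor-es libraries, at 584 to 799 bp.

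**Figure D2:**
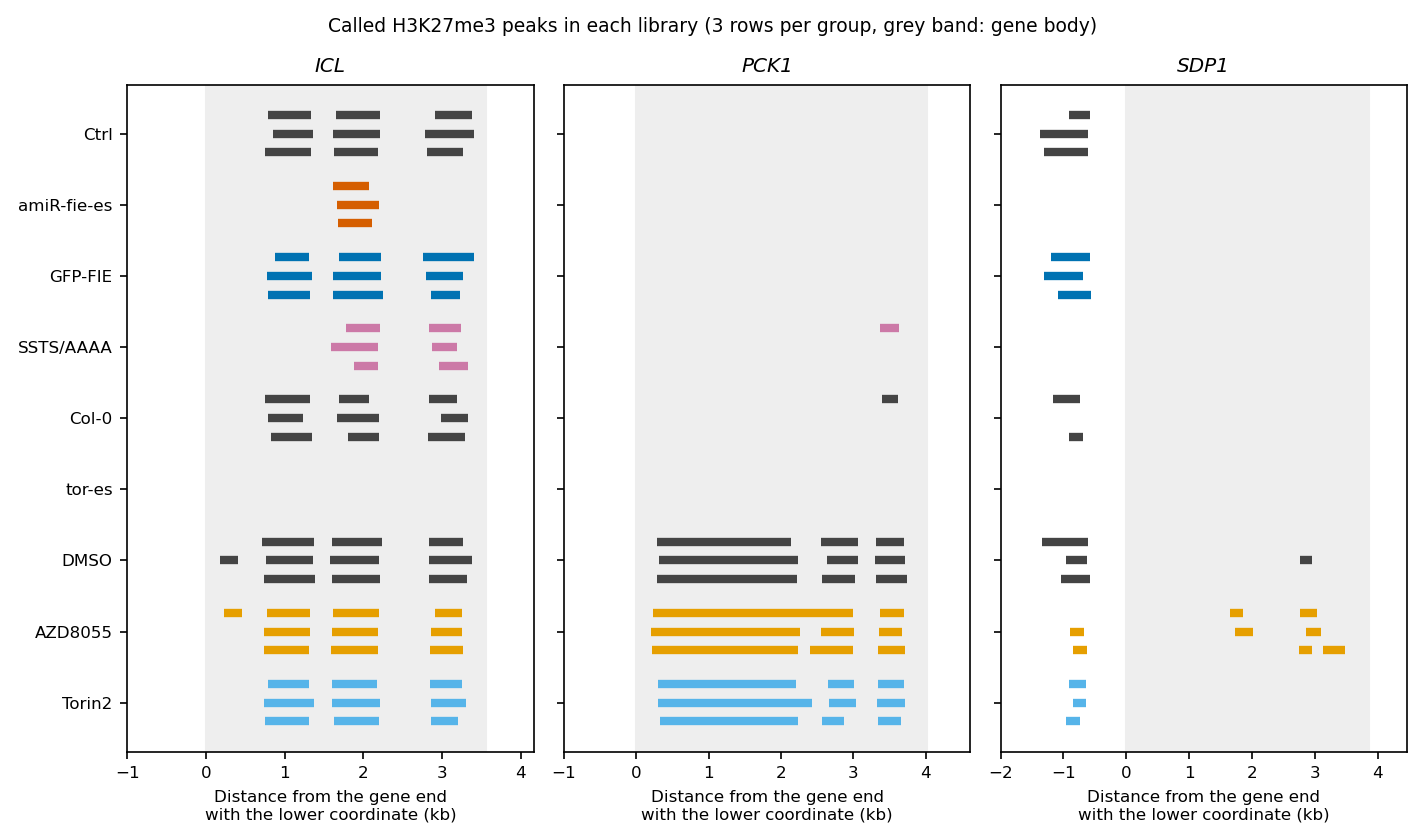
Called H3K27me3 peaks (bars) over ICL, PCK1 and SDP1 in each library, 3 rows per group, with distance in kb from the end of the gene that has the lower coordinate; grey marks the gene body. ICL shows 3 recurring places, of which tor-es has none, amiR-fie-es the middle one and SSTS/AAAA the middle and right ones, and a further peak at the low-coordinate edge in 1 DMSO and 1 AZD8055 library.

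Chemical inhibition of TOR left ICL marked. Peaks covered 1717, 2000 and 1736 bp under DMSO, 1706, 1566 and 1584 bp under AZD8055 and 1507, 1683 and 1479 bp under Torin2. These lengths include a further peak at the low-coordinate edge of the gene, of 228 bp in DMSO replicate 2 and of 240 bp in AZD8055 replicate 1. Each inhibitor library lay below each DMSO library, and the means were 51.0% ± 4.46, 45.4% ± 2.12 and 43.6% ± 3.11 of the gene (SD, n = 3 each). The permutation p was 0.1 for each inhibitor, the smallest possible, and coverage fell in this way at 31.3% (AZD8055) and 25.4% (Torin2) of genes with a peak. The 2 comparisons share the DMSO libraries. In covered length AZD8055 and Torin2 overlapped with each other (exact permutation p = 0.5). Fold enrichment at the 3 places did not fall under AZD8055. It was 4.17 to 5.51 there (percentiles 76.2 to 89.8 of the library) and 3.09 to 4.08 under DMSO (47.2 to 72.7). Under Torin2 it was 2.43 to 4.55 (19.2 to 84.2), overlapping DMSO. These fold values were not tested, so shorter coverage does not show weaker enrichment. The change in tor-es minus that under AZD8055 was -1140.0 bp, and minus that under Torin2 -1080.0 bp. An exact permutation of labels within each experiment (400 arrangements) gave p = 0.1 for both, 0.175 after Benjamini-Hochberg adjustment over 7 such relations. With tor-es at 0 in all 3 libraries and each inhibitor below DMSO, these arrangements could give no smaller p, so this test could not show a difference between silencing and inhibition.

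Lower or altered FIE went with shorter ICL coverage. Peaks covered 1580, 1726 and 1602 bp in Ctrl (45.9% ± 2.21) and 453, 531 and 430 bp in amiR-fie-es (13.2% ± 1.47). GFP-FIE held 1604, 1651 and 1548 bp (44.9% ± 1.45) and SSTS/AAAA 832, 922 and 668 bp (22.6% ± 3.6). Neither pair of groups overlapped, with an exact permutation p of 0.1 in each, while GFP-FIE and Ctrl overlapped (p = 0.7). Coverage of all case libraries below all reference libraries was found at 76.9% of genes with a peak for amiR-fie-es and 59.4% for SSTS/AAAA, so ICL did here what most marked genes did. ICL stayed marked in 3 of 3 libraries of both lines and so was not lost, whereas 57.0% of genes marked in Ctrl were lost in amiR-fie-es and 18.1% of those marked in GFP-FIE in SSTS/AAAA.

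No member was gained in any main comparison, gained meaning marked in 3 of 3 case and 0 of 3 reference libraries. Gains made up 0.0328% of unmarked genes in amiR-fie-es, 0.0137% in SSTS/AAAA, 0.0422% in GFP-FIE, 2.46% under AZD8055, 0.0387% under Torin2 and 0.692% under Torin2 against AZD8055. Coverage in all case libraries above all reference libraries was found at 0.221% of genes with a peak in amiR-fie-es, 0.786% in tor-es, 0.69% under Torin2 and 10.0% under AZD8055. Losses made up 4.75% of marked genes under AZD8055 and 3.51% under Torin2, and no member was among them.

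MLS, malate synthase, was nearly free of called peaks. It carried 284 bp in GFP-FIE replicate 3 and 200 bp in AZD8055 replicate 1, and 0 bp in each of the other 25 H3K27me3 libraries. Both peaks overlapped each other in position, at 1034188 to 1034471 and 1034213 to 1034412 on chromosome 5, and were weak, with −log10 q values of 2.40 and 2.84. The glyoxylate cycle pair thus differed in every group but tor-es, in which neither gene had a peak.

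PCK1, the gluconeogenic carboxykinase, was broadly covered in the inhibitor experiment irrespective of treatment. Peaks covered 2754, 2762 and 2830 bp of its 4016 bp under DMSO, 3097, 2829 and 2996 bp under AZD8055 and 2626, 2881 and 2552 bp under Torin2. The treatments overlapped with DMSO and with each other, with exact permutation p-values of 0.2 (AZD8055), 0.4 (Torin2) and 0.2 (between inhibitors). In Col-0 seedlings of the same age in the TOR experiment, replicate 1 held 224 bp and the other libraries 0 bp, and tor-es held 0 bp in all 3. In shoots the only peak was one of 269 bp in SSTS/AAAA replicate 1. These 2 isolated peaks, at 17806086 to 17806309 and 17806058 to 17806326 on chromosome 4, lie inside the stretch from 17805988 to 17806436, within which each of the 9 libraries of the inhibitor experiment had a peak. These peaks began at 17806057 at the latest and ended at 17806353 at the earliest.

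The wide coverage of PCK1 was shared with many genes of that experiment. Against Col-0, a comparison added after the data were seen and made across experiments, all 3 DMSO libraries lay above all 3 Col-0 libraries at 49.5% of genes with a peak, and 10.5% of genes unmarked in Col-0 were marked in all 3 DMSO libraries. RNA in Ctrl shoots was compared for 2280 of the 2302 genes marked in all DMSO and no Col-0 library. Their median was 54.2 FPKM (fragments scaled to gene length and library size). The median was 0.0696 FPKM for 3873 genes marked in all libraries of both groups. It was 4.56 FPKM for 17520 of the 18086 genes marked in no DMSO library. PCK1 itself stood at 62.0 FPKM in those shoots. RNA of the inhibitor experiment was not analysed here, and what part the experiment, the covered total or the RNA level plays in the PCK1 peaks was not tested.

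Its paralogue PCK2 was marked across experiments. PCK2 had 1 RNA count over the 3 Ctrl libraries and 12 over the 3 GFP-FIE libraries, and was marked in all 3 libraries of each of 8 groups and in 2 of 3 in amiR-fie-es. In Col-0 its peaks covered 1578, 1586 and 1730 bp, and in tor-es 1314, 405 and 959 bp. All tor-es libraries lay below all Col-0 libraries (exact permutation p = 0.1), as at 26.8% of genes with a peak. PCK2 therefore kept called peaks over a shorter length in tor-es, where none was called on ICL.

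SDP1, the oil body lipase, carried peaks in its body under AZD8055. They covered 466, 530 and 554 bp of its 3863 bp (13.4% ± 1.14), against 0, 200 and 0 bp under DMSO and 0 bp in all Torin2 libraries. Each AZD8055 library lay above each DMSO and each Torin2 library (exact permutation p = 0.1 in both). Against DMSO this was so of 10.0% of genes with a peak, and against Torin2 of 17.4%. Marked in 3 of 3 AZD8055 and 0 of 3 Torin2 libraries, at the same dose and time, SDP1 counts as lost between the inhibitors, like 8.21% of genes marked under AZD8055. It was not counted as gained against DMSO because of DMSO replicate 2, without which it was. These peaks were 200 to 354 bp wide with −log10 q values of 2.05 to 4.49, and none was left when only peaks with a −log10 q of at least 5 were kept.

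A second patch lay outside the gene. Peaks between 1087974 and 1088772 on chromosome 5, over or beside the neighbouring gene AT5G04030, which lies 649 bp from SDP1, were called in 3 of 3 libraries of Ctrl, GFP-FIE, DMSO and Torin2 and in 2 of 3 of Col-0 and AZD8055. None was called in amiR-fie-es, SSTS/AAAA or tor-es, the 3 groups whose peaks covered the least of the genome in their experiments. AT5G04030 had 1 RNA count over all 12 libraries.

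RNA levels in shoots split the 4 genes into an abundant and a scarce pair. Per length, PCK1 averaged 62.0 FPKM in Ctrl, 81.0 in amiR-fie-es, 67.3 in GFP-FIE and 84.4 in SSTS/AAAA, and SDP1 18.1, 23.9, 23.4 and 26.7 FPKM in the same order. MLS averaged 0.312, 0.389, 0.270 and 0.439 FPKM, and ICL 0.0682, 0.143, 0.0204 and 0.133 FPKM. Within each genotype the order PCK1, SDP1, MLS, ICL held in all libraries with no overlap between neighbours. Unlike peak coverage, then, low RNA was common to both glyoxylate cycle genes.

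**Figure D3:**
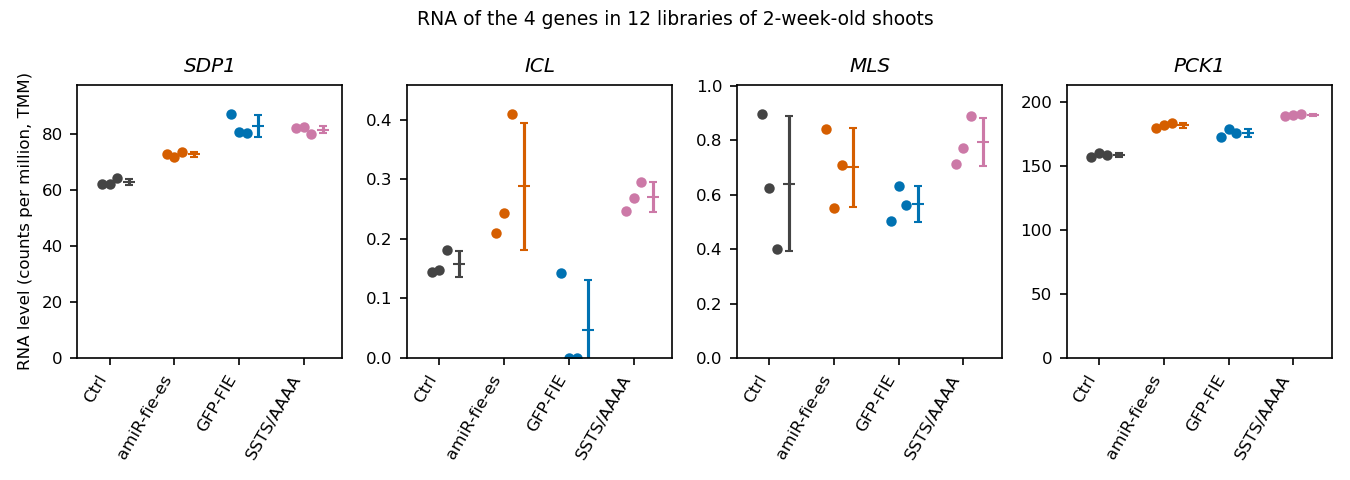
RNA level (CPM, normalised by the trimmed mean of M-values, TMM) of the 4 genes in 12 shoot libraries, one point per library with the mean and SD beside them; each panel has its own axis from 0. SDP1 and PCK1 are lowest in Ctrl, and ICL lies at 0 in 2 GFP-FIE libraries.

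Setting amiR-fie-es against Ctrl compares shoots with lowered, not absent, FIE transcript to wild type. Oestradiol is labelled for amiR-fie-es only, so its part cannot be told apart from that of silencing. SDP1 stood at 62.3, 62.4 and 64.3 CPM in Ctrl and at 73.1, 72 and 73.8 CPM in amiR-fie-es. It rose by 15.9% (log2 fold change 0.21 ± 0.03 SE, n = 3 each, edgeR quasi-likelihood test, Benjamini-Hochberg adjusted p = 3.08e-07). PCK1 stood at 157, 160 and 159 CPM in Ctrl and at 180, 182 and 184 CPM in amiR-fie-es, and rose by 14.4% (0.19 ± 0.02, edgeR adjusted p = 4.41e-10). Both genes were higher in all 3 libraries than in any Ctrl library. These 2 rises among 3 tested members stand beside a background in which 59.2% of the 20046 tested genes were called, 29.3% as higher and 30% as lower.

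MLS and ICL gave few counts and no call in that comparison. MLS had 25, 17 and 11 counts in Ctrl and 28, 18 and 26 in amiR-fie-es, which overlap (log2 fold change 0.13 ± 0.30, edgeR adjusted p = 0.736). ICL had 4, 4 and 5 counts in Ctrl and 7, 8 and 15 in amiR-fie-es, and was removed by the filter on low counts. Its pooled counts per library size were 1.86 times those of Ctrl (95% counting interval 0.939 to 3.88). The groups did not overlap, with an exact permutation p of 0.1, the smallest possible. Counting intervals cover counting error only.

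Setting SSTS/AAAA against GFP-FIE asks what the phosphorylation sites of FIE do. The mutant line also had less FIE transcript than GFP-FIE (log2 fold change -1.11 ± 0.06, edgeR adjusted p = 8.28e-20), so altered sites and FIE level cannot be told apart here, in RNA or in peaks. PCK1 stood at 173, 179 and 176 CPM in GFP-FIE and at 189, 190 and 191 CPM in SSTS/AAAA, a rise of 8.05% (log2 fold change 0.11 ± 0.02, edgeR adjusted p = 2.45e-05). SDP1 stood at 87.4, 80.8 and 80.4 CPM in GFP-FIE and at 82.2, 82.5 and 80.3 CPM in SSTS/AAAA and was not called (-0.02 ± 0.03, edgeR adjusted p = 0.565). Of all tested genes 65.5% were called, 33.3% as higher, so 1 call among 3 tested members is below the background share. MLS had 14, 18 and 15 counts in GFP-FIE and 26, 26 and 33 in SSTS/AAAA, higher in every library but not called (0.48 ± 0.30, edgeR adjusted p = 0.150).

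ICL was the member with the largest ratio between these lines. It had 4, 0 and 0 counts in GFP-FIE and 9, 9 and 11 in SSTS/AAAA, so the groups did not overlap (exact permutation p = 0.1). The ratio of pooled counts was 5.62 (95% counting interval 1.97 to 22.0). In a fit of 29586 genes without the filter on low counts ICL was called, at a log2 fold change of 2.40 (edgeR adjusted p = 0.00258). Calls were common in this comparison, at 65.5% of the 20046 genes tested in the main fit. That fit did not hold ICL, and the share called in the fit without the filter is not given here. The level in SSTS/AAAA, 0.271 ± 0.0245 CPM (SD, n = 3), was above that of Ctrl, 0.158 ± 0.021 CPM, in every library (exact permutation p = 0.1, the smallest possible). The ratio of pooled counts to Ctrl was 1.72 (95% counting interval 0.866 to 3.6). GFP-FIE was the low group, at 0.306 of Ctrl (0.0727 to 0.990), and 3 counts, the limit that a count of 0 allows in 1 of its libraries, correspond to 0.108 CPM.

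The complemented line differed from wild type in the abundant pair. SDP1 was 31.6% higher in GFP-FIE than in Ctrl (log2 fold change 0.40 ± 0.03, edgeR adjusted p = 1.2e-13) and PCK1 10.7% higher (0.15 ± 0.02, edgeR adjusted p = 1.15e-06), against a background of 29.8% of genes called, 14.4% as higher. SDP1 therefore had its highest mean in GFP-FIE, at 82.9 ± 3.91 CPM, with SSTS/AAAA next at 81.7 ± 1.19 CPM, amiR-fie-es at 73.0 ± 0.875 CPM and Ctrl at 63.0 ± 1.14 CPM. GFP-FIE and SSTS/AAAA did not differ beyond their spread, and every other pair was called. Against GFP-FIE, SDP1 in amiR-fie-es was lower (-0.18 ± 0.03, edgeR adjusted p = 2.9e-06, where 56.5% of genes were called, 28.6% as lower). For PCK1 the order was SSTS/AAAA, amiR-fie-es, GFP-FIE and Ctrl, at 190, 182, 176 and 159 CPM.

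The middle steps of the PCK1 order were small. PCK1 in amiR-fie-es was not called against GFP-FIE (0.05 ± 0.02, edgeR adjusted p = 0.0651), but was without GFP-FIE replicate 2 (adjusted p = 0.0317) and with total-count scaling (0.27, adjusted p = 4.01e-14). SSTS/AAAA exceeded amiR-fie-es (0.06 ± 0.02, edgeR adjusted p = 0.0112, where 55.8% of genes were called, 30.9% as higher), a call lost without amiR-fie-es replicate 1 (adjusted p = 0.0668). Against Ctrl, PCK1 in SSTS/AAAA was 19.6% higher (0.26 ± 0.02, adjusted p = 8.46e-14) and SDP1 29.7% higher (0.38 ± 0.03, edgeR adjusted p = 6.29e-14), with 69.1% of genes called, 35% as higher. The difference between the SSTS/AAAA effect over GFP-FIE and the amiR-fie-es effect over Ctrl was called for both genes, among 45.5% of all genes. Comparisons that share Ctrl or GFP-FIE are not independent of each other.

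The scaling of the libraries bears on these small changes. Scaling to total counts, chosen after the data were seen, moved the median log2 fold change of all genes by 0.192 in amiR-fie-es against Ctrl, by 0.213 in SSTS/AAAA against GFP-FIE, by 0.218 in amiR-fie-es against GFP-FIE and by -0.0262 in GFP-FIE against Ctrl. The share of calls that were higher went from 49.4% to 74.4%, from 50.7% to 74.4%, from 49.4% to 78.2% and from 48.5% to 38.4% in that order. PCK1 and SDP1 stayed higher in amiR-fie-es and GFP-FIE than in Ctrl under both scalings. SDP1 turned from -0.02 to 0.19 in SSTS/AAAA against GFP-FIE (edgeR adjusted p = 5.38e-07) and from -0.18 to 0.03 in amiR-fie-es against GFP-FIE (edgeR adjusted p = 0.326), so its direction there depends on the scaling. MLS in SSTS/AAAA against GFP-FIE was called with total scaling, at 0.70 (edgeR adjusted p = 0.032).

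Other genes of the route from oil to sugar moved in both directions. Of 34 listed genes 32 were tested. In amiR-fie-es against Ctrl 9 rose and 13 fell, where 29.3% of all tested genes were called higher and 30% lower. The median log2 fold change of the list was -0.03 against 0.01 for all tested genes. With total scaling 20 rose and 7 fell, with a median of 0.16, so the balance of the list turns with the scaling. In SSTS/AAAA against GFP-FIE 17 rose and 7 fell, with a median of 0.18 against 0.02 for all genes (25 and 3 with total scaling, 16 and 7 without SSTS/AAAA replicate 1). Over all genes 33.3% were higher and 32.3% lower. In GFP-FIE against Ctrl 5 rose and 11 fell, with a median of -0.06, where 14.4% of all genes were higher and 15.3% lower.

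Beta-oxidation held the largest block of rises. In SSTS/AAAA against GFP-FIE 8 of its 10 genes rose and 1 fell, and in amiR-fie-es against Ctrl 5 rose and 2 fell. Over all tested genes 33.3% were called higher in the former comparison and 29.3% in the latter. With total scaling 9 rose and 1 fell, and 8 rose and 1 fell, in that order. KAT2, a peroxisomal thiolase, went from 91.0 ± 2.33 CPM in GFP-FIE to 159 ± 0.914 in SSTS/AAAA (log2 fold change 0.80) and from 92.9 ± 2.36 in Ctrl to 136 ± 0.754 in amiR-fie-es (0.55). The multifunctional protein gene MFP2 rose by 0.82 and 0.40, and the acyl-CoA oxidase gene ACX4 by 0.65 and 0.56, on the log2 scale in the same 2 comparisons. KAT5, another thiolase gene, fell in both, by 0.95 and 0.97 on the log2 scale.

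**Figure D4:**
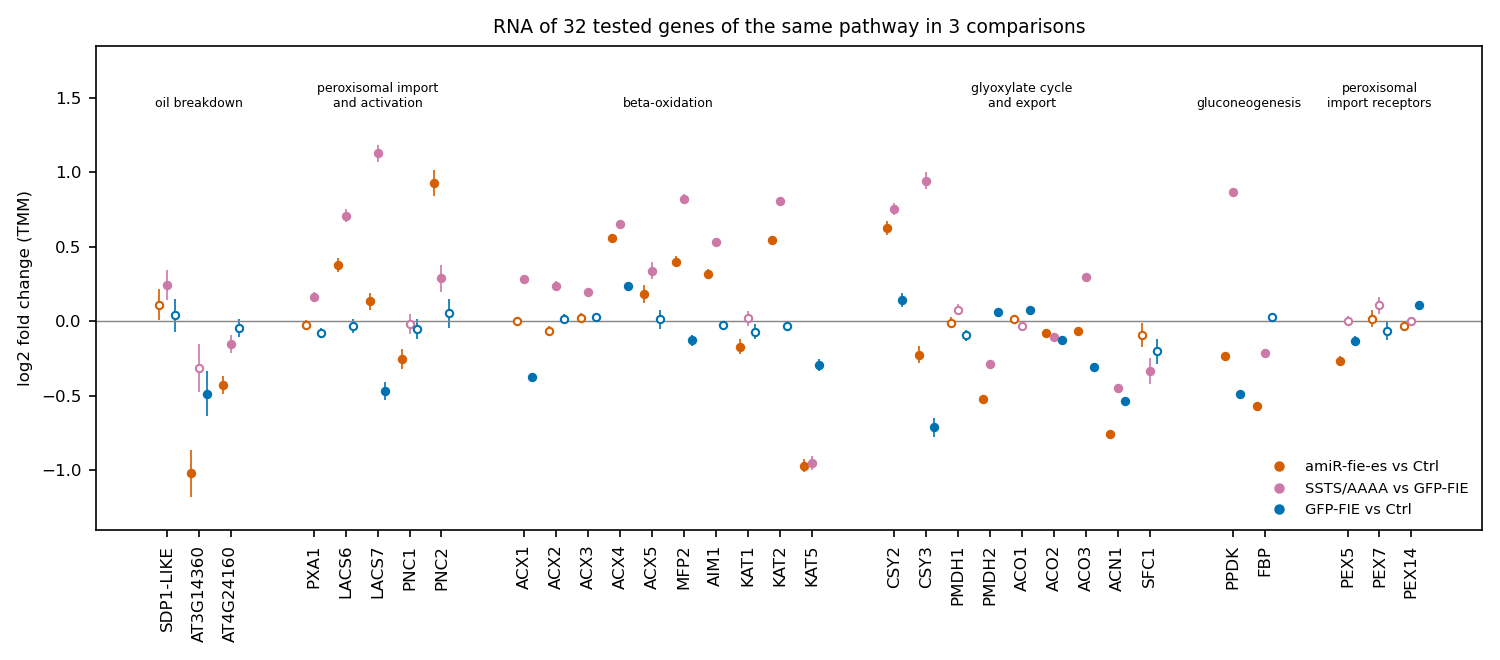
Log2 fold change (TMM) with its standard error for the 32 tested genes of the same pathway in 3 comparisons; filled points have an edgeR adjusted p under 0.05. In SSTS/AAAA against GFP-FIE 17 genes rose, 8 of them of beta-oxidation, and KAT5 fell in both FIE comparisons.

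Fatty acid activation and the remaining steps were mixed. LACS7, a long-chain acyl-CoA synthetase of the peroxisome, rose from 14.3 ± 0.823 CPM in GFP-FIE to 31.2 ± 1.53 in SSTS/AAAA (log2 fold change 1.13 ± 0.06, edgeR adjusted p = 1.07e-21). In amiR-fie-es against Ctrl its change was 0.13 ± 0.06 (edgeR adjusted p = 0.0383), a call lost without Ctrl replicate 1 (0.121), Ctrl replicate 2 (0.0753), amiR-fie-es replicate 1 (0.137) or amiR-fie-es replicate 3 (0.149). AT3G14360, listed with oil breakdown, fell from 3.34 ± 0.407 CPM in Ctrl to 1.65 ± 0.171 in amiR-fie-es (-1.02 ± 0.16, edgeR adjusted p = 3.19e-07). Of the glyoxylate cycle and export genes, 5 fell and 1 rose of 9 tested in amiR-fie-es, ACN1 (acetate activation) by 0.76 and the malate dehydrogenase gene PMDH2 by 0.52 on the log2 scale, while CSY2, a peroxisomal citrate synthase gene, rose by 0.63. With total scaling 5 of these 9 rose and 2 fell, so the balance of the group turns with the scaling.

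Markers of other tissue states moved with the FIE lines as well. The 4 flower bud markers summed to 3.96 to 5.63 CPM in Ctrl, 165 to 170 in amiR-fie-es, 4.49 to 7.03 in GFP-FIE and 270 to 274 in SSTS/AAAA, and all 4 rose in both comparisons. The 7 markers of senescing leaf summed to 202 to 217 CPM in Ctrl and 184 to 196 in amiR-fie-es. They summed to 126 to 127 CPM in GFP-FIE and 460 to 467 in SSTS/AAAA. These sums hide opposite changes. Of the 6 tested, 2 rose and 2 fell in amiR-fie-es against Ctrl. All 6 rose in SSTS/AAAA against GFP-FIE, but 5 fell and 1 rose in GFP-FIE against Ctrl. SAG29 averaged 88.4 CPM in Ctrl, 14.8 in amiR-fie-es, 16.7 in GFP-FIE and 32.9 in SSTS/AAAA. DIN1 averaged 32, 88.1, 41.2 and 317 CPM in the same order, most of the SSTS/AAAA sum. The 3 leaf markers summed to 52300 to 52900 CPM in Ctrl, 38900 to 39500 in amiR-fie-es, 54600 to 55200 in GFP-FIE and 38800 to 39800 in SSTS/AAAA. The 6 seed markers summed to 0.0718 to 0.545 CPM in Ctrl, 0.391 to 0.602 in amiR-fie-es, 0.0352 to 0.43 in GFP-FIE and 0.889 to 1.24 in SSTS/AAAA, above every other library. The seed storage protein gene CRA1, the 1 seed marker tested, had 7 counts over the GFP-FIE libraries and 89 over the SSTS/AAAA libraries (log2 fold change 3.24 ± 0.52, edgeR adjusted p = 5.97e-07), and SESA1 was at 0 in Ctrl, GFP-FIE and SSTS/AAAA. Of the 6 pollen markers, which summed to 7.40 to 9.13 CPM, ANX1 stood at 6.89 to 8.63 CPM and the others at 0.634 CPM or less, with ANX2 at 0 in Ctrl and SSTS/AAAA and RALF4 at 0 in amiR-fie-es. In bulk shoots, fewer cells of a type and less RNA per cell cannot be told apart, and the part of tissue makeup in the changes of SDP1, PCK1 and beta-oxidation was not tested.

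At the other pathway genes H3K27me3 was rare outside the inhibitor experiment. Of the 34 listed genes only PCK2 was marked in all 3 Col-0 libraries, against 4003 of all 27444 nuclear protein-coding genes. None of the 34 was lost or gained in tor-es, where 6.97% of marked genes were lost and 0.041% of unmarked genes gained. In shoots the citrate synthase gene CSY1 was marked in 3 of 3 Ctrl libraries, at 200 to 267 bp, and in 1 GFP-FIE library. It carried no peak in amiR-fie-es or SSTS/AAAA. CSY1 was the 1 listed gene lost in amiR-fie-es against Ctrl, where 57.0% of marked genes were lost. Under DMSO 7321 of all 27444 genes were marked in 3 of 3 libraries, among them 10.5% of the genes unmarked in Col-0. Of the 34 listed genes 12 were marked in all 3 DMSO libraries, 11 of them in no Col-0 library. These 11 had a median of 46.4 FPKM in Ctrl shoots, and the 20 listed genes marked in no DMSO library 10.6 FPKM. PMDH2, at 891 FPKM, was covered over 67.3% of its length under DMSO, 67.0% under AZD8055 and 66.2% under Torin2, and carried no peak in the other 18 libraries.

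The genes whose RNA pattern over the 12 libraries was most like each member are given by name. For ICL they were AT3G50170 (Pearson r = 0.965), AT5G58570 (0.945) and CYP86A1 (0.939), all at 1.26 CPM or less. For MLS they were AT1G58060 (0.903), LPLAT1 (0.876) and AGT2 (0.870). For PCK1 they were RPP4 (0.989), AT1G72416 (0.988) and MCC1 (0.987), and for SDP1 AUL1 (0.976), EXLA1 (0.975) and ACA10 (0.969). The 12 libraries form 4 genotypes and share their scaling, so these values describe shared differences between genotypes. No member was among the nearest genes of another.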

How the data were processed

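The raw counts per gene were deposited by the authors and not normalized; per the submitters' processing notes reads were trimmed with Trimmomatic 0.36, aligned with HISAT2 2.1.0 to TAIR10 and counted with featureCounts (Subread 1.5.3), with strand setting not given in the sources used here. The deposited FPKM values equal count per length and total and served only to compare genes. Per the same notes ChIP reads were aligned with BWA 0.7.15-r1142 and peaks called with MACS2. The authors' list for each library gives per peak a score, a fold ratio over background and −log10 p and q values; read depth, inputs and threshold are unknown.

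Counts were tested with edgeR 4.0.16 (R 4.3.3): filterByExpr, TMM, 1 quasi-likelihood fit of all 12 libraries, Benjamini-Hochberg adjustment over 20046 genes, threshold 0.05, two-sided. The fit was tested on simulated data. Every adjusted p comes from it except those printed with a named alternative, which come from that alternative. The 0.175 for ICL coverage is a permutation p adjusted over 7 relations. CPM means carry no prior count, except a prior of 2 in the likeness measure. The alternatives were DESeq2 1.42.0 size factors and Wald test, no filter, a replicate block, the contrast's libraries alone, leaving out each library, and total-count scaling.

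Peaks were set against gene bodies of the TAIR10.1 table, which matched 31912 of 32678 gene IDs. With no shift 403 genes were covered over 90% or more in all 3 Ctrl libraries, with shifts 71 to 102, so the builds line up. Lost means marked (200 bp) in 3 of 3 reference and 0 of 3 case libraries, gained the reverse. Alternatives were 1 and 500 bp, peaks with −log10 q of at least 5, and 1000 bp added on both sides. Members and lists were chosen with earlier results of these data known. Named beside the members are pathway genes called with an absolute log2 fold change of at least 1, and the 3 genes most like each member. PCK2, CSY1, KAT2, MFP2, ACX4, KAT5, ACN1, PMDH2, CSY2, AT2G28590, CYP714A1, AT3G21710, AT5G04030 and the single marker genes were named after their values were seen. No per-sample column stayed unmapped (0), and no 2 peak lists were identical.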

Additional observations from a re-analysis of the deposited data

Results flagged for a closer look

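The response to altered FIE differed between the 2 comparisons for 4 of the named genes, by the edgeR test of the difference between the effect of SSTS/AAAA (over GFP-FIE) and that of silencing (amiR-fie-es over Ctrl), in which 45.5% of all tested genes were called. The SDP1 effect was lower with the phosphorylation-site mutant than with silencing (difference of log2 fold changes -0.23, adjusted p = 3.06e-05), and so was that of PCK1 (-0.08, adjusted p = 0.0292). The PCK1 difference was not called without amiR-fie-es replicate 2 (adjusted p = 0.0516), without amiR-fie-es replicate 3 (0.0715) or with total-count scaling (-0.06, adjusted p = 0.108). The 2 effects have different references, and GFP-FIE itself was above Ctrl, by 0.40 for SDP1 and 0.15 for PCK1 on the log2 scale. Against Ctrl the order was the reverse. SDP1 rose by 0.38 in SSTS/AAAA and 0.21 in amiR-fie-es, and PCK1 by 0.26 and 0.19. LACS7 rose more with the mutant (0.99, adjusted p = 3.78e-14). For AT3G14360, which fell with silencing and was not called with the mutant, the difference was 0.71 (adjusted p = 0.0086). Its change with the mutant was called without GFP-FIE replicate 2 (-0.41, adjusted p = 0.0476). No group here has the 4 libraries that a test for single outlying libraries needs.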

How the results depend on the processing

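Counts of called members changed by more than 1.5 times in these cases. SSTS/AAAA against GFP-FIE went from 1 to 2 with the DESeq2 Wald test or no filter and to 3 with total-count scaling. SSTS/AAAA against amiR-fie-es went from 2 to 1 with DESeq2 or the contrast's libraries alone, and over leave-one-out fits ran from 1 to 2. Against GFP-FIE, amiR-fie-es went from 1 to 2 with DESeq2, its size factors or the contrast's libraries alone and to 3 with no filter, with leave-one-out values of 1 to 2. The difference of effects went from 2 to 1 with total-count scaling and ran from 1 to 2 over leave-one-out fits. For H3K27me3, members lost or gained between Torin2 and AZD8055 went from 1 to 0 with 500 bp, with stronger peaks or with 1000 bp added; with 1000 bp added, amiR-fie-es against Ctrl and SSTS/AAAA against GFP-FIE went from 0 to 1. AZD8055 against DMSO ran from 0 to 1 over leave-one-out values. The 1 lost member in tor-es against Col-0 stayed 1 under every alternative run.

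With total-count scaling SDP1 reversed to 0.192 (called) in SSTS/AAAA and to 0.0345 (not called) in amiR-fie-es against GFP-FIE; no other reversed value was called. Over leave-one-out fits MLS ran from -0.43 to 0.141 in GFP-FIE against Ctrl (0.141 without Ctrl replicate 1) and from -0.122 to 0.45 in amiR-fie-es against Ctrl (-0.122 without Ctrl replicate 3, -0.0179 without amiR-fie-es replicate 1). ICL coverage in GFP-FIE minus Ctrl ran from -63 to 10 bp (10 without Ctrl replicate 2) and turned to 17.7 bp in Torin2 minus AZD8055 with stronger peaks. The causes were not tested.

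Same-numbered libraries did not deviate together (correlations of -0.0425 to 0.0452), so the labels' numbers do not pair them. With the replicate block the members called stayed 2, 1 and 2 in amiR-fie-es against Ctrl, SSTS/AAAA against GFP-FIE and GFP-FIE against Ctrl, pathway genes 22, 24 and 16, and the sign-flip p for ICL in tor-es was 0.25, the smallest that 3 pairs allow. The planned upstream window and promoter motifs were not run, since the tables used here hold neither strand nor sequence.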
